A study of Mus musculus with 6 samples.

Results

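The genes described here are the D and E cyclins of the G1 phase of the cell cycle, the kinases they activate and a pair of kinase inhibitors, measured in mouse fibroblasts after silencing of the glycolytic enzyme gene *Aldoa*. They were chosen by symbol, with earlier results of these data known: *Ccnd1*, *Ccnd2*, *Ccnd3*, *Ccne1*, *Ccne2*, *Cdk2*, *Cdk4*, *Cdk6*, *Cdkn1b* and *Cdkn2c*. These are 10 genes of the 18001 in the deposited table, each present in 1 row. NIH/3T3, an immortalized mouse fibroblast line, was grown in DMEM with 10% FCS and transfected with siRNAs for 48 h. The siCTR group received non-targeting control siRNAs and the siALDOA group a commercial pool of siRNAs against *Aldoa*, with 3 libraries per group, so both groups carried siRNA and differed in its target. Poly(A) RNA was sequenced, and per the paper's methods spike-in RNA was added in the lysis buffer for replicate 1 and after extraction for replicates 2 and 3.

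D cyclins (*Ccnd1* to *Ccnd3*) are made in response to growth factors and bind the kinases CDK4 and CDK6, which begin the phosphorylation of the retinoblastoma protein. Phosphorylation releases E2F transcription factors, and E2F drives the genes of S phase together with the E cyclins (*Ccne1*, *Ccne2*), which bind CDK2 and carry the cell into DNA replication. p18, the product of *Cdkn2c*, binds CDK4 and CDK6 and keeps them from D cyclins, whereas p27, the product of *Cdkn1b*, binds cyclin-kinase complexes and restrains above all CDK2. Fibroblasts such as NIH/3T3 were a classic system for the passage from quiescence through G1.

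The libraries held 3692341 to 3771129 reads over genes, and 3 reads corresponded to 0.786 to 0.822 CPM (the reads of a gene scaled to an effective library size). Fibroblast markers summed to 13112 to 13648 CPM in siCTR and 10855 to 11527 CPM in siALDOA, with 4 of 10 lower and 4 higher. The epithelial list (4 of 5 genes measured, 2 lower, *Epcam* absent) summed to 6.85 to 11.2 CPM in siCTR and 1.83 to 4.28 CPM in siALDOA, and the endothelial and leukocyte lists each to at most 10.7 CPM in any library. The part of these differences in the results was not tested. The siRNA target itself was at 522 CPM, 536 CPM and 545 CPM in siCTR and at 62.9 CPM, 69.2 CPM and 72.0 CPM in siALDOA, 12.7% of the control. Replicates 1 and 2 of a group differed by little more than sampling noise (chi-square per degree of freedom 1.12 in siCTR and 1.11 in siALDOA), and replicate 3 differed more (1.97 to 3.03). The paper calls them biological replicates. The p-values of single genes in the fits draw on the spread between these libraries, in part shared with other genes of similar level.

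Promoter sequences are shown for members that carry a match to a motif of the MYC and E2F families, since these factors are known to act on G1 genes. RefSeq promoter windows of GRCm38.p6, from 250 bases before to 50 bases after a transcription start, were available for 7 of the 10 members, in 9 windows. They were searched on both strands for the E-box CACGTG, bound by MYC-MAX, and for the E2F motifs TTTCGCGC, TTTGGCGC and TTTCCCGC, with the sequences in view. Capitals mark the matches, and each line is written 5′ to 3′ on the strand of the gene. In order, the windows lie at chr10:127063285-127063584 on the plus strand, chr5:3343643-3343942 on the plus strand, chr4:109665323-109665622 on the minus strand and chr10:128705002-128705301 on the minus strand.
Cdk4: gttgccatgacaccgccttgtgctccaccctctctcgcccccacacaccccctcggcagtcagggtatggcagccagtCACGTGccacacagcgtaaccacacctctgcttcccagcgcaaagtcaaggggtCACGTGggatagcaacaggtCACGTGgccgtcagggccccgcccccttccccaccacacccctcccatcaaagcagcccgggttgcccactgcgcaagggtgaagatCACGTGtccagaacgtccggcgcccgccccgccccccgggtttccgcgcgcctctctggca
Cdk6: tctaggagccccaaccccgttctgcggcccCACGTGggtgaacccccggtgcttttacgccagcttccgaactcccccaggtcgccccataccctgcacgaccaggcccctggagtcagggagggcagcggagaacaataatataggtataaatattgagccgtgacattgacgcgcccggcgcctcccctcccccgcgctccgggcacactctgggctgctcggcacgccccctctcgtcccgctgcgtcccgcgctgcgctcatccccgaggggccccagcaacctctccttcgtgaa
Cdkn2c, window at the second start: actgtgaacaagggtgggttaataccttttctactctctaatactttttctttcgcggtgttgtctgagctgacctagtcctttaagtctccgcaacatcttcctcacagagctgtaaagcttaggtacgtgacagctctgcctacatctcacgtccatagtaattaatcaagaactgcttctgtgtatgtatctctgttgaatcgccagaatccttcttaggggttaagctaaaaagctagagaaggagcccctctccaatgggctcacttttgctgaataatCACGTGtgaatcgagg
Cdk2: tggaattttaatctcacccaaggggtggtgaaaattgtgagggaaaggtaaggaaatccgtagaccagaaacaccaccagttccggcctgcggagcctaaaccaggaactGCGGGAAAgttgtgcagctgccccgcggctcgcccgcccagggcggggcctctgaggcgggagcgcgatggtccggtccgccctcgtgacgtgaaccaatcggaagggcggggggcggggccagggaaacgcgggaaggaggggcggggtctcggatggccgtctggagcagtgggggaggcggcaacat

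The *Cdk4* window held 4 E-boxes, beginning 172, 118, 98 and 11 bases before the start, and 8 of all 32851 windows (0.0244%) held 4 or more. The *Cdk6* window held 1 E-box, 220 bases before the start, and the second *Cdkn2c* window held 1 that begins at base 35 after the start. At least 1 E-box was found in 7.15% of all windows. The *Cdk2* window held 1 E2F motif, 140 bases before the start, against 1.84% of all windows with at least 1. The windows of *Ccnd3*, *Ccne1*, *Cdkn1b* and the first *Cdkn2c* start held neither motif. A match is a description of letters and not a measured binding site.

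Expression was compared between siALDOA and siCTR with limma on log2(CPM + 1), with Benjamini-Hochberg adjustment over all 18001 genes. A gene is called at an adjusted p under 0.05, and the log2 fold changes understate changes of genes with few reads. Of the 10 members, 6 were lower in siALDOA, namely *Ccnd1*, *Ccnd2*, *Ccne1*, *Cdk4*, *Cdk6* and *Cdkn2c*, whereas 10.0% of all genes were called lower. Among the 9835 genes whose mean CPM lay within the members' range (9.63 to 412 CPM), 15.6% were called lower. No member was called higher, with limma, edgeR or DESeq2, against 10.4% of all genes and 15.8% of the genes in that range with limma, and 1 member (*Cdkn1b*) had a higher level at an unadjusted p under 0.05. The siALDOA libraries lay below all siCTR libraries for 8 of the 10 members, against 17.1% of all genes, and above them for 0 members, against 16.7% of all genes. The median log2 fold change of the members was -0.22, and -0.0023 over all genes. Since the members were chosen with earlier results of these data known, these comparisons with all genes are descriptions and not tests. When 1 replicate number was left out of both groups, 3 members were called lower in each fit: *Ccnd1* and *Cdkn2c* in every one, with *Cdk6*, *Ccne1* and *Cdk4* in the fits without replicates 1, 2 and 3. In RNA from whole cultures, a shift of cells between cell cycle phases and a change of RNA per cell cannot be told apart.

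**Figure D1:**
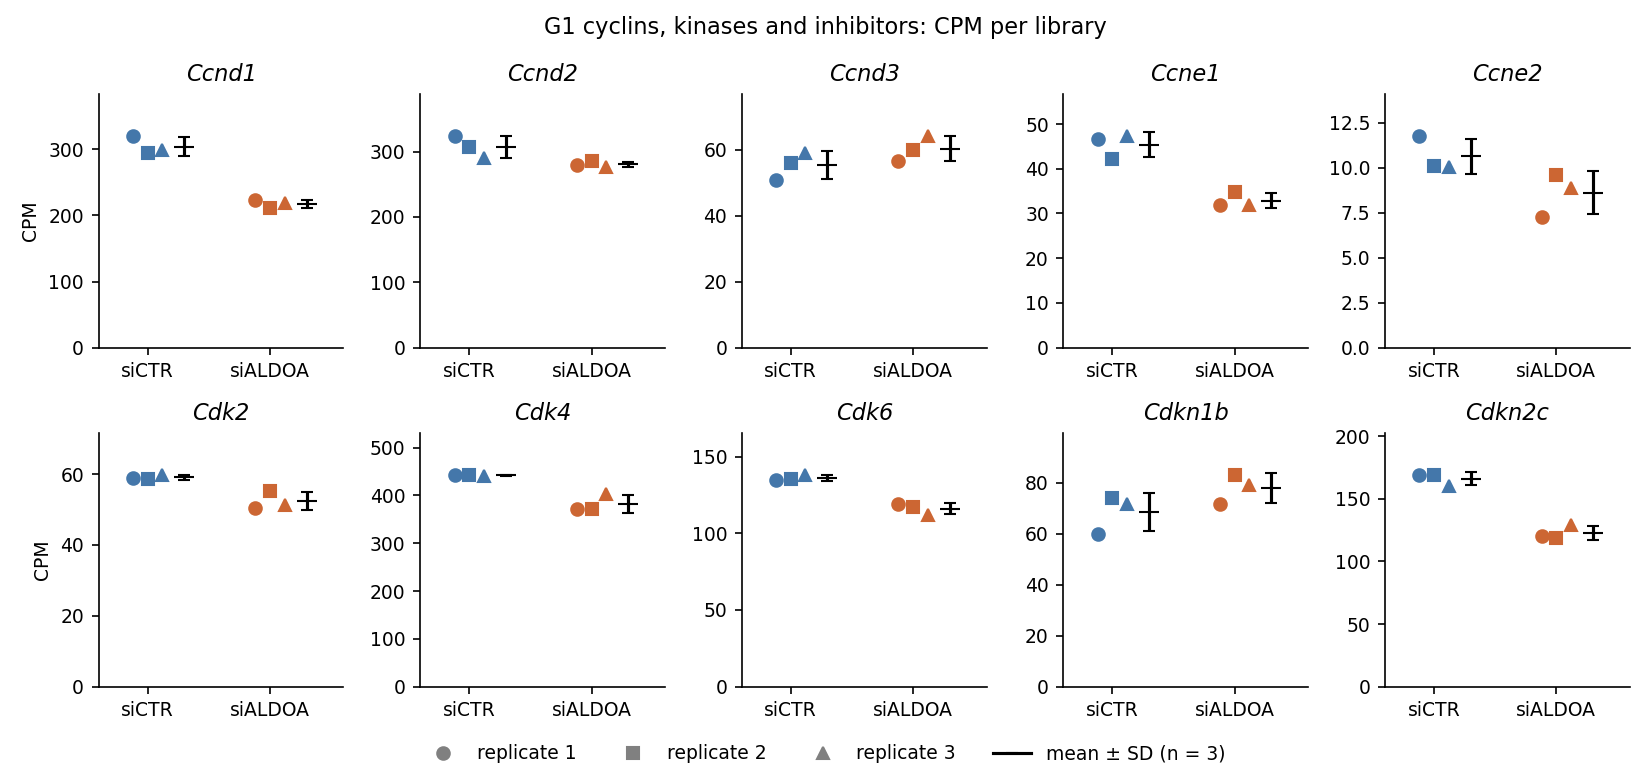
Expression of the 10 genes in each library, in CPM on an axis from 0, with circles, squares and triangles for replicates 1, 2 and 3 and a bar for the mean ± SD of 3 libraries. The siALDOA points lie below all siCTR points in 8 panels, and the groups overlap in the *Ccnd3* and *Cdkn1b* panels.

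Cyclin D1, the D cyclin with the strongest known response to mitogens, fell in siALDOA. *Ccnd1* (ENSMUSG00000070348, chromosome 7 of GRCm38 from 144929931 to 144939925, minus strand) was at 320.5 CPM, 294 CPM and 299 CPM in siCTR replicates 1 to 3 and at 223 CPM, 211 CPM and 218 CPM in siALDOA replicates 1 to 3. The groups were far apart relative to their spread, and the mean fell from 304 ± 14.2 CPM to 218 ± 6.06 CPM (SD, n = 3), or 71.5% of the control. With a log2 fold change of -0.48 (standard error 0.045), the adjusted p was 3.7e-08. The call held in each of the 6 fits without 1 library, in which the adjusted p was at most 5.3e-05. It was 0.0050 to 0.023 with 1 replicate number left out of both groups, and 0.021 without a mean-variance trend.

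*Ccnd2* (ENSMUSG00000000184, chromosome 6 from 127125162 to 127152193, minus strand) encodes cyclin D2, which can take the place of cyclin D1 in complexes with CDK4 and CDK6. Its level was 324 CPM, 307 CPM and 291 CPM in siCTR and 279 CPM, 285 CPM and 277 CPM in siALDOA. All siALDOA values were lower, but the lowest siCTR library, replicate 3, was only a little above the highest siALDOA library. The change was small, to 91.2% of the control (log2 fold change -0.13, standard error 0.044, adjusted p = 0.039). The call was lost in 5 of the 6 fits that left out 1 library, with adjusted p from 0.081 without siALDOA replicate 2 to 0.21 without siCTR replicate 1, and kept without siCTR replicate 3 (0.021). DESeq2 (adjusted p = 0.088), quantile normalization (log2 fold change -0.08, adjusted p = 0.24), scaling to table totals, the fit without a mean-variance trend and the one with a replicate block (adjusted p = 0.060) did not call it either.

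Cyclin D3, the least abundant D cyclin here, did not pass the test. *Ccnd3* (ENSMUSG00000034165, chromosome 17 from 47505051 to 47599691, plus strand) was at 50.7 CPM, 56.1 CPM and 59.0 CPM in siCTR and at 56.7 CPM, 59.9 CPM and 64.1 CPM in siALDOA. The groups overlapped, since siALDOA replicate 1 lay below siCTR replicate 3. The log2 fold change was 0.12 (95% interval -0.04 to 0.29, adjusted p = 0.32).

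Among the E cyclins, cyclin E1 fell and cyclin E2, which was low in all libraries, did not pass the test. *Ccne1* (ENSMUSG00000002068, chromosome 7 from 38097984 to 38107534, minus strand) was at 46.6 CPM, 42.1 CPM and 47.4 CPM in siCTR and at 31.8 CPM, 34.7 CPM and 31.9 CPM in siALDOA. The mean fell from 45.3 ± 2.82 CPM to 32.8 ± 1.65 CPM (SD, n = 3), 72.4% of the control, with no overlap. The change amounted to -0.45 on the log2 scale (standard error 0.091, adjusted p = 0.00075). Without replicate 1 of both groups the adjusted p was 0.066, and without replicate 3 of both groups 0.090.

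*Ccne2* (ENSMUSG00000028212, chromosome 4 from 11191351 to 11204779, plus strand) had 27 to 43 reads per library. Its level was 11.8 CPM, 10.1 CPM and 10.1 CPM in siCTR and 7.29 CPM, 9.62 CPM and 8.90 CPM in siALDOA, so that the groups did not overlap but siALDOA replicate 2 came close to siCTR. The fitted change of -0.28 had a 95% interval of -0.66 to 0.10 (adjusted p = 0.32), which includes a change as large as that of *Ccne1*, and a difference was not detectable at this depth.

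Of the kinases, those that bind D cyclins fell less than *Ccnd1* and *Ccne1* did in log2 fold change, and CDK2 did not pass the test. *Cdk4* (ENSMUSG00000006728, chromosome 10 from 127063534 to 127067920, plus strand) was the most abundant member, at 442 CPM, 443 CPM and 440.2 CPM in siCTR and at 371 CPM, 371 CPM and 403 CPM in siALDOA. The siCTR libraries were nearly equal, and of the siALDOA libraries replicate 3 was nearest to them. The mean of 382 ± 18.4 CPM (SD, n = 3) in siALDOA was 86.5% of the control (log2 fold change -0.21, standard error 0.040, adjusted p = 0.00041). Without a mean-variance trend the adjusted p was 0.12, and it was 0.079 and 0.081 without replicates 1 and 2 of both groups. Quantile normalization gave a log2 fold change of -0.13 (adjusted p = 0.049).

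*Cdk6* (ENSMUSG00000040274, chromosome 5 from 3341485 to 3531008, plus strand), the other partner of D cyclins, was at 134 CPM, 135 CPM and 138 CPM in siCTR and at 119 CPM, 117 CPM and 112 CPM in siALDOA. The groups were separate, and the mean in siALDOA was 85.4% of the control, close to the share for *Cdk4*. A log2 fold change of -0.23 was fitted (standard error 0.054, adjusted p = 0.0034). Its adjusted p was 0.090 without a mean-variance trend, and 0.068 and 0.082 without replicates 2 and 3 of both groups.

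*Cdk2* (ENSMUSG00000025358, chromosome 10 from 128697939 to 128705031, minus strand), the partner of E cyclins, was at 58.9 CPM, 58.5 CPM and 59.8 CPM in siCTR and at 50.5 CPM, 55.3 CPM and 51.3 CPM in siALDOA. The groups did not overlap, at 88.7% of the control, but the adjusted p was 0.12 for a log2 fold change of -0.17 (95% interval -0.33 to -0.02). No alternative fit called it, with adjusted p from 0.087 to 0.36.

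The inhibitors differed: *Cdkn2c*, the inhibitor of CDK4 and CDK6, fell, as *Cdk4* and *Cdk6* did, and *Cdkn1b* did not pass the test. *Cdkn2c* (ENSMUSG00000028551, chromosome 4 from 109660876 to 109667189, minus strand) was at 169 CPM, 169 CPM and 159.8 CPM in siCTR and at 120.4 CPM, 118 CPM and 129 CPM in siALDOA. All 3 siALDOA libraries were well below siCTR, and the mean fell from 166 ± 5.25 CPM to 123 ± 5.84 CPM (SD, n = 3), 74.0% of the control. With a log2 fold change of -0.43 (standard error 0.054) it had an adjusted p of 2.2e-06, at most 0.00047 in the fits without 1 library. Its adjusted p was 0.014 to 0.019 with 1 replicate number left out of both groups, and 0.028 without a mean-variance trend.

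*Cdkn1b* (ENSMUSG00000003031, chromosome 6 from 134920401 to 134925513, plus strand) was at 60.0 CPM, 73.9 CPM and 71.7 CPM in siCTR and at 71.5 CPM, 83.1 CPM and 79.1 CPM in siALDOA. siCTR replicate 1 was the lowest library, and siALDOA replicate 1 lay below the 2 other siCTR libraries. The fitted change was 0.19 (95% interval 0.02 to 0.35, adjusted p = 0.11). Without siCTR replicate 1 it was 0.09, with an adjusted p of 0.48.

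**Figure D2:**
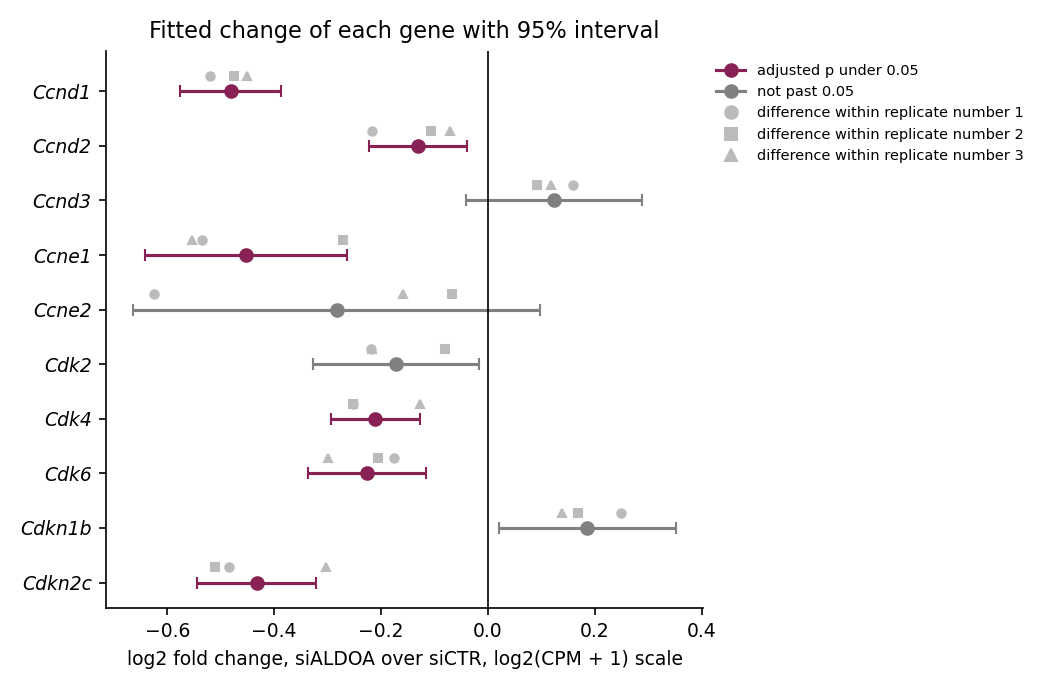
Log2 fold change of siALDOA over siCTR for each gene on the log2(CPM + 1) scale, with the 95% interval from limma, and above each the 3 differences within a replicate number in grey. The 6 dark points, from *Ccnd1* at -0.48 to *Ccnd2* at -0.13, passed an adjusted p of 0.05, and the intervals of *Ccnd3* and *Ccne2* include 0.

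Levels of different genes were compared per kilobase of exon, so their order depends on the exon lengths used, which the SDs do not include. In siCTR the order was *Cdk4* (136 ± 0.417 CPM per kilobase), *Ccnd1* (64.6 ± 3.01), *Cdkn2c* (61.7 ± 1.96), *Ccnd2* (32.7 ± 1.77), *Ccne1* (17.0 ± 1.06), *Cdkn1b* (15.1 ± 1.64), *Cdk6* (9.72 ± 0.134), *Cdk2* (9.50 ± 0.104), *Ccnd3* (6.30 ± 0.481) and *Ccne2* (3.05 ± 0.279), each as mean and SD of 3 libraries. The neighbours *Ccnd1* and *Cdkn2c*, and *Cdk6* and *Cdk2*, overlapped between libraries in siCTR and in siALDOA. *Ccne1* and *Cdkn1b* overlapped in siCTR only. In siALDOA the *Cdkn1b* values (17.1 ± 1.29) all stood above those of *Ccne1* (12.3 ± 0.618), the reverse of the order of the siCTR means. *Cdk2* (8.42 ± 0.417) also stood above *Cdk6* (8.30 ± 0.259) in the siALDOA mean, with overlapping libraries. The other levels in siALDOA ran from 118 ± 5.68 CPM per kilobase for *Cdk4* to 2.46 ± 0.342 for *Ccne2*.

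Summed per kilobase, D cyclin transcripts were at 108 CPM per kilobase, 101 CPM per kilobase and 101 CPM per kilobase in siCTR and at 83.5, 82.0 and 83.1 in siALDOA, 80.0% of the control in the mean. *Ccnd1* made up 62.4% ± 0.743 of that sum in siCTR and 55.8% ± 1.04 in siALDOA (SD, n = 3). The share of *Ccnd2* was 31.5% ± 0.834 and 36.0% ± 0.886, and that of *Ccnd3* 6.10% ± 0.683 and 8.29% ± 0.532. The D cyclin pool was therefore smaller in siALDOA and held relatively less *Ccnd1*, with no overlap between the groups in the share of any D cyclin. E cyclin transcripts summed to 20.1 ± 1.18 CPM per kilobase in siCTR and 14.8 ± 0.906 in siALDOA, and *Ccne1* held 84.8% ± 1.14 and 83.4% ± 1.51 of them, with overlapping groups. These shares depend on the exon lengths used. By reads alone, *Ccnd1* and *Ccnd2* had 45.6% and 46.1% of the D cyclin reads in siCTR.

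**Figure D3:**
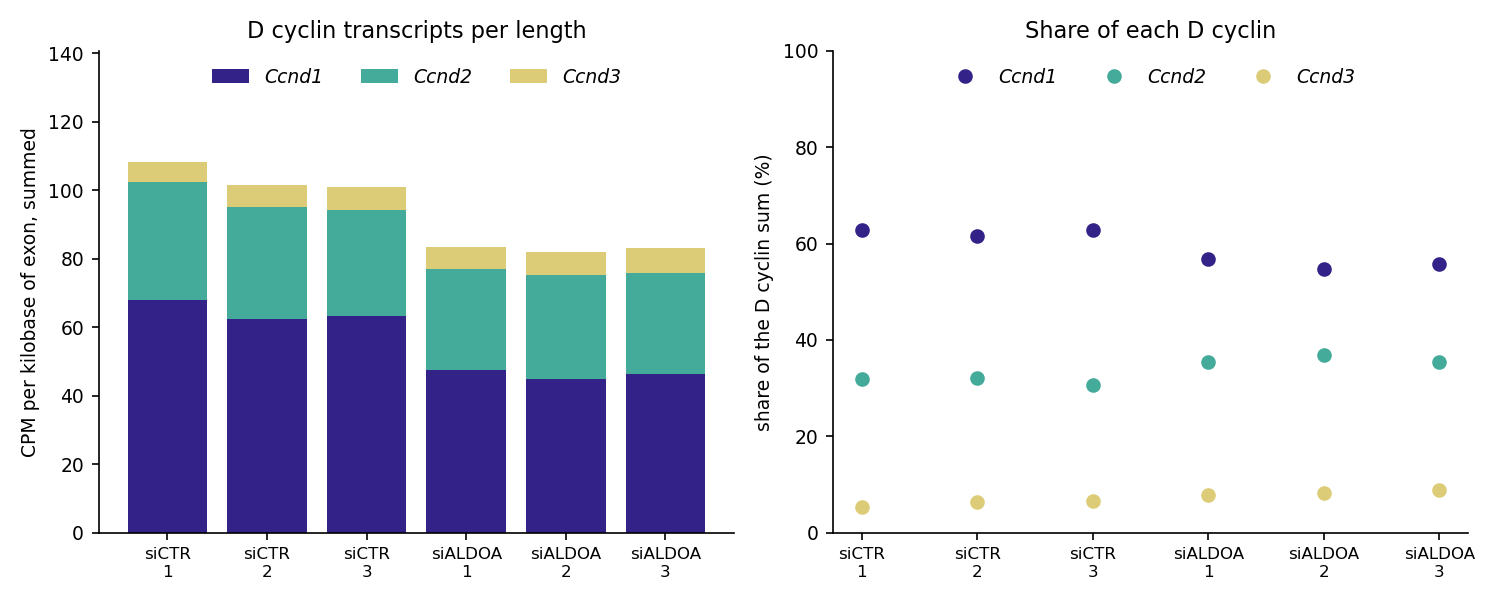
Left, CPM per kilobase of exon of the 3 D cyclins, stacked for each library on an axis from 0. Right, the share of each D cyclin in that sum, with a point per library. The stacks are 101 to 108 high in siCTR and 82.0 to 83.5 in siALDOA, and the *Ccnd1* share is lower in the siALDOA libraries.

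Whether members moved unequally was examined through the log2 ratio of their CPM within each library, which no scaling between libraries affects. A total of 11 ratios were compared by exact permutation tests over the 3 against 3 libraries, two-sided, for which 0.1 is the smallest p, so no ratio could pass 0.05. The log2 ratio of *Ccnd1* to *Ccnd2* was -0.02, -0.06 and 0.04 in siCTR and -0.32, -0.43 and -0.34 in siALDOA, a difference of -0.35 (exact permutation p = 0.1, adjusted over the 11 ratios 0.16). *Ccnd1* and *Ccnd2* reads were thus near equal in siCTR and parted in siALDOA by more than the spread between libraries. Against *Ccnd3* the difference was -0.61 for *Ccnd1* and -0.26 for *Ccnd2*, again with groups that did not overlap and exact p = 0.1. Without siCTR replicate 1 the difference for *Ccnd2* over *Ccnd3* was -0.16.

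Of the ratios of D cyclins to inhibitors, those with separate groups were lower in siALDOA for *Cdkn1b* and higher for *Cdkn2c*, and 1 ratio to each inhibitor had overlapping groups. The log2 ratio of *Ccnd1* to *Cdkn1b* was 2.42, 1.99 and 2.06 in siCTR and 1.64, 1.34 and 1.46 in siALDOA, a difference of -0.67 or 0.628 times the control ratio, and that of *Ccnd2* to *Cdkn1b* differed by -0.32, both with separate groups and exact permutation p = 0.1. Without siCTR replicate 1, the library with the lowest *Cdkn1b*, the *Ccnd2* to *Cdkn1b* difference was -0.19. The ratio of *Ccnd1* to *Cdkn2c* was 0.93, 0.80 and 0.90 in siCTR and 0.89, 0.83 and 0.76 in siALDOA on the log2 scale, and its groups overlapped (difference -0.05, exact permutation p = 0.5). *Ccnd2* and *Ccnd3* relative to *Cdkn2c* were higher in every siALDOA library, by 0.30 and 0.56 on the log2 scale, each with exact permutation p = 0.1. The ratios of *Ccne1* to *Ccne2* (difference -0.15), *Ccnd3* to *Cdkn1b* (-0.06) and *Cdk4* to *Cdk6* (0.02) had overlapping groups, with exact permutation p from 0.3 to 1.

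**Figure D4:**
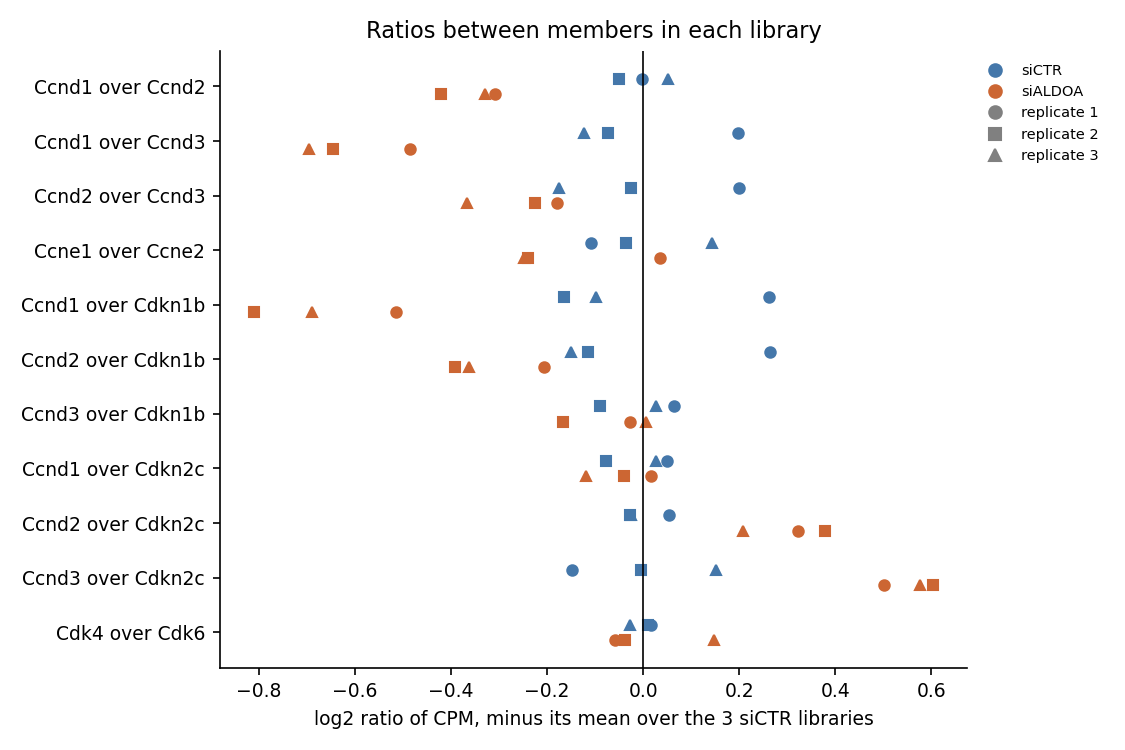
Log2 ratio of CPM for the 11 compared pairs in each library, shifted so that the mean of the 3 siCTR libraries is 0. The groups are separate in 7 rows, of which *Ccnd2* and *Ccnd3* over *Cdkn2c* are to the right in siALDOA and the 5 others to the left.

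Some reads of the members are uncertain because other genes share their sequence, and the use of strand in counting is not stated. On the opposite strand, *Oraov1* shares 1100 exon bases with *Ccnd1*, *Tspan31* 641 with *Cdk4*, *Ints8* 609 with *Ccne2*, 9330179D12Rik 368 with *Ccnd2*, *Bysl* 361 with *Ccnd3* and *Pmel* 34 with *Cdk2*. Their adjusted p with limma ran from 0.22 for *Oraov1* to 0.97 for 9330179D12Rik. *Oraov1* was at 18.6 ± 1.65 CPM in siCTR and 22.0 ± 1.26 CPM in siALDOA (SD, n = 3), opposite in direction to *Ccnd1*. A transcript of *Gm7158* was 90.5% identical to *Cdk4* over 264 bases, and this gene was at 38.7 ± 2.58 CPM in siCTR and 29.7 ± 2.59 CPM in siALDOA (SD, n = 3), with a log2 fold change of -0.37 (limma adjusted p = 0.0090). *Ccnd3-ps*, 96.3% identical to *Ccnd3* over 881 bases, was at 12.1 ± 1.23 CPM and 10.8 ± 0.463 CPM (SD, n = 3), with a log2 fold change of -0.14. The part of shared reads in the members' values was not tested.

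The other genes of G1 and S phase entry were taken from 8 lists, with 102 genes measured, of which 37 were lower and 10 higher in siALDOA, where 10.0% of all genes were lower and 10.4% higher. The count of higher genes was thus near that share of all genes. The lists, too, were chosen with earlier results of these data known, so the counts are descriptions and not tests. Without 1 replicate number these counts were 16 to 20 lower and 2 to 6 higher. The targets of E2F in S phase moved most evenly: 15 of the 16 measured were lower, and the median log2 fold change was -0.49, against -0.0023 over all genes. *Ung*, a uracil-DNA glycosylase, fell from 30.9 ± 1.68 CPM to 13.7 ± 1.67 CPM (SD, n = 3), a log2 fold change of -1.13 (limma adjusted p = 5.9e-07). *Cdc6*, which loads the replicative helicase, and *Rrm2*, a subunit of ribonucleotide reductase, fell by 0.81 and 0.80 on the log2 scale (adjusted p = 5.1e-06 and 7.1e-10). The remaining gene, *Tyms* (thymidylate synthase), named here after its values were seen, was not called (log2 fold change -0.25, adjusted p = 0.081).

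Of the later cyclins and their partners, 5 of 6 were lower. *Ccna2*, the cyclin of S and G2 phases, was at 173 ± 9.75 CPM in siCTR and 148 ± 7.25 CPM in siALDOA (SD, n = 3), a log2 fold change of -0.23 (limma adjusted p = 0.0039). *Ccnb2*, a mitotic cyclin, fell by 0.40, *Cks2* by 0.35 and *Ccnf* by 0.34. The remaining gene, *Ccnb1*, also a mitotic cyclin and named here after its values were seen, was not called. It was at 98.0 ± 2.95 CPM in siCTR and 95.9 ± 3.66 CPM in siALDOA (SD, n = 3), with overlapping groups (log2 fold change -0.03, limma adjusted p = 0.78). Among pocket proteins and E2F-DP factors, 4 of 12 were lower and 1 higher. The lower ones were *E2f1* (log2 fold change -0.23, adjusted p = 0.043), an activator, *E2f2* (-0.82, adjusted p = 0.014), and *E2f7* and *E2f8*, the atypical repressors and E2F targets (-0.62 and -0.71, adjusted p = 6.0e-05 and 0.00024). *Tfdp2*, a dimer partner of E2F, was higher (0.54, adjusted p = 0.0016). *Rb1*, the retinoblastoma gene, had 4.23 to 6.57 CPM in all libraries and overlapping groups (log2 fold change -0.05, 95% interval -0.53 to 0.43).

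The other inhibitors of cyclin-dependent kinases gave 1 lower and 1 higher gene of 4, where 10.0% of all genes were lower and 10.4% higher. Of these 4, *Cdkn2a*, named here after its values were seen, had only 0 to 6 reads per library (mean 0.27 CPM) and was not called. *Cdkn1a*, which encodes p21, was at 184 CPM, 171 CPM and 191 CPM in siCTR and at 217 CPM, 216 CPM and 205 CPM in siALDOA, and so rose with separate groups (log2 fold change 0.23, adjusted p = 0.0019). *Cdkn3*, a phosphatase that acts on cyclin-dependent kinases, fell from 12.4 ± 1.29 CPM to 6.66 ± 0.980 CPM (SD, n = 3; limma adjusted p = 0.0029). In the ubiquitin ligases that act on G1 cyclins and p27, 4 of 12 genes were lower and 8 were not called, and the lowest were *Usp28*, a deubiquitinase (-0.42), *Cks1b* (-0.37) and *Skp2* (-0.31). The products of *Skp2* and *Cks1b* are known to recognise p27 protein for degradation, and protein was not measured here. Of the kinases and phosphatases that regulate cyclin-dependent kinases, 3 of 8 were lower: *Pkmyt1* (-0.46), *Cdc25a* (-0.34), which activates CDK2, and *Cdc37* (-0.21), a co-chaperone of CDK4.

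Transcription factors known to act on G1 cyclin genes had 4 lower and 3 higher of 20, with a median log2 fold change of -0.02. Among genes within the members' range of CPM, 15.6% were lower and 15.8% higher, and the counts for these factors lie near those shares. *Myc*, whose product binds E-boxes, was at 168 CPM, 165 CPM and 177 CPM in siCTR and at 138 CPM, 130.4 CPM and 148 CPM in siALDOA (log2 fold change -0.29, limma adjusted p = 0.00040). A link between *Myc* and the levels of *Cdk4* or other members was not tested. *Tcf7l2*, the nuclear effector of the Wnt pathway, fell by 0.56 and *Fosl1*, an AP-1 protein, by 0.18 (adjusted p = 3.6e-05 and 0.034). *Foxo3*, which is known to raise *Cdkn1b*, rose from 58.5 ± 2.53 CPM to 81.1 ± 0.951 CPM (SD, n = 3), a log2 fold change of 0.47 (limma adjusted p = 1.8e-05). *Junb* rose by 0.50 and *Ets1* by 0.18 on the same scale (adjusted p = 0.020 and 0.013).

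**Figure D5:**
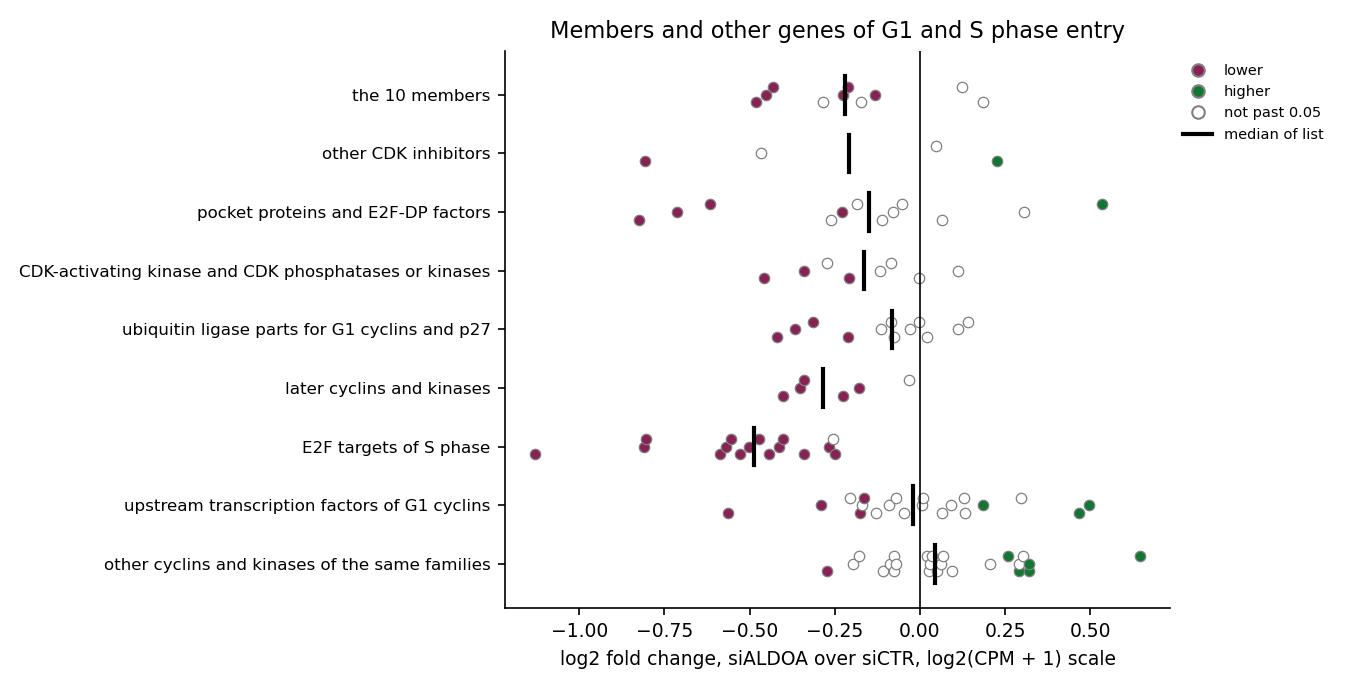
Log2 fold change of siALDOA over siCTR for the 10 members and for the genes of each list, with a point per gene, filled where the adjusted p was under 0.05, and a black bar at the median of the list. Lower genes make up most of the S phase list, whose median is -0.49, and the list of other cyclins and kinases has a median of 0.04.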

How the data were processed

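Poly(A) RNA libraries of 6 NIH/3T3 samples (3 siCTR, 3 siALDOA) were sequenced. Per the paper's methods and the submitters' processing notes, the authors aligned reads to mm10 with Bowtie2 2.2.7, subsampled libraries to equal read numbers, counted reads per gene and dropped genes with fewer than 12 reads over all samples, although 1834 genes in the table have fewer than 12. The deposited values are CPM. Whole reads were recovered from the CPM steps for 100% of values (tolerance 1e-06), and library totals were 3692341 to 3771129 reads. Spike-in reads were not used here. Another deposited table holds the authors' own fold changes, p-values and mean levels and was not used.

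Because the unit is CPM, limma 3.58.1 with a mean-variance trend was applied to log2(CPM + 1), with Benjamini-Hochberg adjustment over 18001 genes. The quasi-likelihood test of edgeR (4.0.16) and DESeq2 (1.42.0) were run on recovered reads as alternatives, in R 4.3.3. The paper's methods name edgeR, without its version or test, and do not name DESeq2. Other alternatives were the pseudocount, a filter on low values, 4 other scalings, no trend, the replicate block and left-out libraries. The fits were tested on simulated data in which 200 genes changed by 1 on the log2 scale. Of these, limma recovered 72%, limma with the replicate block 61.5%, edgeR 79.5% and DESeq2 69%. Changes as small as those of the members were not simulated. Exon lengths came from GENCODE M21 (GRCm38) and similar transcripts from blastn 2.17.0.

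Beside the 10 members and *Aldoa*, the genes named are *Cdkn1a*, *Ccna2*, *E2f1*, *Myc* and *Rb1*, up to 3 called genes of lowest and 3 of highest log2 fold change with separate groups from each list, and genes that overlap or resemble a member. The members and lists were chosen with earlier results of these data known.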

Additional observations from a re-analysis of the deposited data

How the results depend on the processing

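Of 424 recomputed values, 375 counted as unchanged. For this, log2 fold changes had to keep their direction and their side of the threshold, and log2 ratios their direction only. Shares had to move by less than the spread, and counts to stay within 1.5 times. The TMM scaling of recovered reads gave the same values as the main fit and was no separate check. Without a mean-variance trend 1440 genes, 3 members and 19 lower and 3 higher genes of the G1 and S phase lists were called, and *Ccnd2* (-0.13), *Cdk4* (-0.21) and *Cdk6* (-0.23) were not. DESeq2 called 2183 genes, against 3676 with limma, and did not call *Ccnd2* (-0.13), nor did quantile normalization (-0.081) or table totals (-0.11). The cause was not tested. With replicates left out, 1014 to 2813 genes, 3 to 6 members, and 16 to 33 lower and 2 to 9 higher listed genes were called, in part because fewer samples entered the fit. The log2 fold changes then lay at -0.17 to -0.088 for *Ccnd2*, -0.54 to -0.40 for *Ccne1*, -0.25 to -0.19 for *Cdk4* and -0.25 to -0.19 for *Cdk6*, and the log2 ratio of *Cdk4* to *Cdk6*, which had overlapping groups, at -0.048 to 0.055. By the longest transcript the siCTR shares were 56.4% for *Ccnd1*, 33.6% for *Ccnd2*, 9.95% for *Ccnd3* (difference 3.27 points) and 86.5% for *Ccne1*, and by reads alone 45.6%, 46.1%, 8.31% and 81.0%. At 27 to 43 reads per library, depth limits *Ccne2* most.

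The replicate block called 3170 genes and 5 members, without *Ccnd2* (log2 fold change -0.13, adjusted p = 0.060), and the median of the same-numbered differences in the *Cdk4* to *Cdk6* ratio was -0.047. After subtraction of each group mean, siCTR and siALDOA libraries of equal number correlated at 0.040, 0.040 and 0.207 over 8271 genes for replicates 1, 2 and 3. siCTR 1 and siCTR 2 correlated best with another number, whereas the replicate 3 libraries correlated with each other. Their correlations with the other libraries of the opposite group were negative (-0.154 to -0.079). Subtraction of the group mean makes negative values follow from the positive one, so they add no separate evidence. The pairing is therefore not shown for replicates 1 and 2, and replicate 3 stands apart in both groups.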

Other observations

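In the list of other cyclins and kinases, 1 of 24 genes was lower and 5 were higher in siALDOA, with a median log2 fold change of 0.04, where 10.0% of all genes were lower and 10.4% higher. The 24 include *Dmtf1*, named after its values were seen, which is neither a cyclin nor a kinase and had 0 to 2 reads per library. *Cdk12* and *Ccnt1*, which act in transcription elongation, rose by 0.32 each (limma adjusted p = 0.00024 and 7.3e-05), whereas *Cdk9*, the kinase partner of *Ccnt1*, fell by 0.27 (adjusted p = 0.0074). *Ccng2*, an atypical cyclin associated with growth arrest, rose from 10.0 ± 0.692 CPM to 16.2 ± 1.23 CPM (SD, n = 3), a log2 fold change of 0.65 (limma adjusted p = 0.0043). *Cdk8*, named after its values were seen, was at 2790.2 CPM, 2667 CPM and 802 CPM in siCTR replicates 1 to 3 and at 2703 CPM, 2350.1 CPM and 1144 CPM in siALDOA replicates 1 to 3, lowest in replicate 3 of both groups.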
